A study of Mus musculus with 9 samples.

Results

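The genes examined here are 5 components of hormone signalling in the mammary epithelium: the receptor genes Esr1, Pgr and Prlr, and Greb1 and Tnfsf11, which lie downstream of the oestrogen and progesterone receptors. They were taken by symbol from the 18484 genes counted in tumours of BlgCre-NeuKI mice, and each symbol occurred once. The choice was made with earlier results of these data known. RNA of 9 snap-frozen tumours was sequenced, with 1 library per tumour. Amplification of the Erbb2/Neu locus, which the authors measured by qPCR on tumour DNA, was labelled high in MS1213.1, MS1163.1, MS1163.2, MS1218.2 and MS1155.3 and not/low in MS1210.1, MS1349.1 and MS1166.1. MS1213.1, MS1163.1 and MS1163.2 came from virgin animals. The remaining epithelial tumours, and the sarcoma MS1156.1, which the labels place outside both groups, came from parous animals, that is, animals taken through pregnancy. MS1210.1 and MS1349.1 were adenosquamous carcinomas (ASQC), and the other 6 epithelial tumours were adenocarcinomas of no special type, AC(NST). All animals carried the same heterozygous alleles, BlgCre and NeuKI, on a mixed FVB/C57Bl6 background. BlgCre is a Cre recombinase driven by the Beta-lactoglobulin promoter, which by the paper targets mainly luminal cells negative for the oestrogen receptor. NeuKI is an activated orthologue of Erbb2 placed in the Erbb2 locus behind a stop cassette that Cre removes. The ages of the animals were not used here, and a sequencing batch is not given in the sources used here.

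Every virgin tumour was high-amplified AC(NST), and both ASQC tumours were parous and not/low-amplified, so that the effects of amplification, parity and histotype cannot be told apart in full. By their names MS1163.1 and MS1163.2 share a mouse, although the series text counts each tumour as from its own mouse. The paper also writes of MS1163 as an animal. Both tumours were kept as separate samples, so p-values treat them as independent and measure the spread between the tumours sampled.

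Oestrogen receptor alpha (Esr1) and the progesterone receptor (Pgr) are transcription factors that are switched on by their hormones. In the normal gland they are held by a subset of luminal cells, which pass the signal to neighbouring cells through secreted factors. Tnfsf11 encodes RANKL, a progesterone-induced factor of this kind, which acts on its receptor RANK. Greb1 is an oestrogen-induced gene whose product binds the oestrogen receptor, and Pgr is itself an oestrogen-induced gene. The prolactin receptor (Prlr) signals through JAK2 and STAT5 and is needed for alveolar development and milk protein expression.

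The 5 genes lie on different chromosomes of mouse build GRCm38. Esr1 spans chr10:4611593-5005614 on the + strand, Pgr chr9:8899833-8968611 on the + strand, Prlr chr15:10177238-10349180 on the + strand, Greb1 chr12:16670615-16800886 on the - strand and Tnfsf11 chr14:78277445-78308043 on the - strand. Prlr shares 203 exon bases with Gm21973, and Greb1 shares 736 with the antisense gene Gm48140. Since the reads were aligned with settings for unstranded libraries and the strand option of the counting is not given in the sources used here, reads of Greb1 and its antisense partner may not have been told apart.

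The windows from 250 bases before to 50 bases after each start site (RefSeq, GRCm38.p6) number 9 for the 5 genes, since some genes have several starts. Of the windows, 5 are shown because Pgr, Greb1 and Tnfsf11 are taken as readouts of the nuclear receptors, and because this window of Prlr held matches to 2 of the motifs searched. Capitals mark matches, on either strand, to the core of the oestrogen response element (GGTCA), the core of the progesterone response element (TGTTCT) or a STAT5 site (TTCNNNGAA).
Pgr, chr9:8899583-8899882, + strand: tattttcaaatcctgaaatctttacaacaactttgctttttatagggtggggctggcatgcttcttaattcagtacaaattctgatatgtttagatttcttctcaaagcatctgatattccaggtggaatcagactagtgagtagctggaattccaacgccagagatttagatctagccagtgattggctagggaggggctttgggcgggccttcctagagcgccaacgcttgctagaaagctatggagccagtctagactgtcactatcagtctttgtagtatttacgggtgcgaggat
Greb1, first start, chr12:16800837-16801136, - strand: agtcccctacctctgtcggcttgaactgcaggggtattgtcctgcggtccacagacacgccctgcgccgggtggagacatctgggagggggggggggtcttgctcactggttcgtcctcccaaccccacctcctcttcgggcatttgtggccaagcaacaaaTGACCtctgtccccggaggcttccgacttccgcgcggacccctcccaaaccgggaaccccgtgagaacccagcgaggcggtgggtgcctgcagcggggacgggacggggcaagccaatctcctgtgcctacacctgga
Greb1, second start, chr12:16757190-16757489, - strand: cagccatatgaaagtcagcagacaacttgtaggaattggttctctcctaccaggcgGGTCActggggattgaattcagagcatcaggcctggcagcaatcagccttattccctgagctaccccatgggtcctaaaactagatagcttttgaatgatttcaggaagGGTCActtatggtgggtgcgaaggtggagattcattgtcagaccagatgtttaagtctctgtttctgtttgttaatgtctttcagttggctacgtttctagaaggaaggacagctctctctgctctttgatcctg
Tnfsf11, chr14:78307994-78308293, - strand: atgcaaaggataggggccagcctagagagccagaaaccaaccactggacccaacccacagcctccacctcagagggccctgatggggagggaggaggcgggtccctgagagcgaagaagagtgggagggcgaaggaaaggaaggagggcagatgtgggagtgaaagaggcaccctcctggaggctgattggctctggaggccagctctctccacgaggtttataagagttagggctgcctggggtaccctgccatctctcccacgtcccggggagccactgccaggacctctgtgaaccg
Prlr, second start, chr15:10223656-10223955, + strand: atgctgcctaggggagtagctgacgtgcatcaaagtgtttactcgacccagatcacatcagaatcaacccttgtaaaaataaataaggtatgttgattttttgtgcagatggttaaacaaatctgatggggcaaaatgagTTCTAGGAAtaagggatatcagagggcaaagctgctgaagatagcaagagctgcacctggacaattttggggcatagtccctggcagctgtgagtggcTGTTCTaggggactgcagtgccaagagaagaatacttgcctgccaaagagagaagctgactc
The oestrogen core lay 88 bases before the first start of Greb1 and at 194 and 85 bases before the second start, and the Pgr and Tnfsf11 windows held no match to any of the motifs. The first Esr1 window, not shown, held the oestrogen core 15 bases after the start, and the second held the STAT5 letters 188 bases before it. The second Prlr window held the STAT5 letters 110 bases before the start and the progesterone core 12 bases before it. The oestrogen core occurs in 40.5% of all 32851 promoter windows, the progesterone core in 19.0% and the STAT5 letters in 8.30%, against 3, 1 and 2 of the 9 windows, and these matches are a description of the letters only. The full oestrogen response element, which is the core and its reverse complement 3 bases apart, occurs in 0.0700% of all windows and was in none of the 9.

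The depth was 12501225 to 23912429 counts per tumour. Erbb2 itself, the gene of the engineered locus, had 5284 to 105020 normalized counts in the 5 high-amplified tumours and 1532 to 2783 in the 3 not/low-amplified tumours, without overlap. The normalized count is the count divided by a size factor for each tumour. The summed normalized count of 5 luminal markers (Krt8, Krt18, Krt19, Epcam and Cdh1) was 30715 to 48492 in the high-amplified and 73976 to 126240 in the not/low-amplified tumours, without overlap, and 455 in the sarcoma. The part of this difference in the amplification values below was not tested. MS1218.2 stood apart from the other 7 epithelial tumours: its sum of 5 fibroblast markers was 251580 against 21654 to 79323, its sum of 4 macrophage markers was 27299 against 1941 to 8899, and its sum of 3 endothelial markers was 10286 against 1231 to 4348. None of these markers was at 0 in any epithelial tumour. The authors' qPCR scored the Neu copy number of MS1218.2 as high, whereas their digital droplet PCR and exome results did not. Their estimate of tumour purity also set MS1218.2 apart, so results are given with and without it. MS1213.1 was likewise high by qPCR and low by digital droplet PCR, but amplified by exome. For MS1349.1 the authors' digital droplet PCR gave no evidence that the stop cassette was removed or the locus amplified. In bulk tumours, fewer cells of a type and less RNA per cell cannot be told apart.

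Of the receptors, Prlr was abundant, Esr1 was low and Pgr had the lowest median, from tumours with 1 to 633 counts. Levels of different genes were compared as counts per 1000000 counts of the tumour (CPM), divided by the exon length in kilobases. On this scale Prlr had a median of 15.6 over the 8 epithelial tumours (range 2.96 to 27.3), place 4 of 19 hormone receptor genes. Esr1 had a median of 1.95 (0.573 to 4.77), in place 16, and Pgr a median of 0.146 (0.00767 to 3.10), the lowest of the 19. The abundance of the second oestrogen receptor, Esr2, was similarly low, with a median of 0.174 (0.0125 to 2.42). The highest medians belonged to Pgrmc1, a membrane haem-binding protein (61.4), and to the glucocorticoid receptor Nr3c1 (25.7). Neighbours in this order overlapped widely: the range of Prlr covered the medians of 10 of the 18 other receptors, and the range of Pgr covered those of 6.

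**Figure D1:**
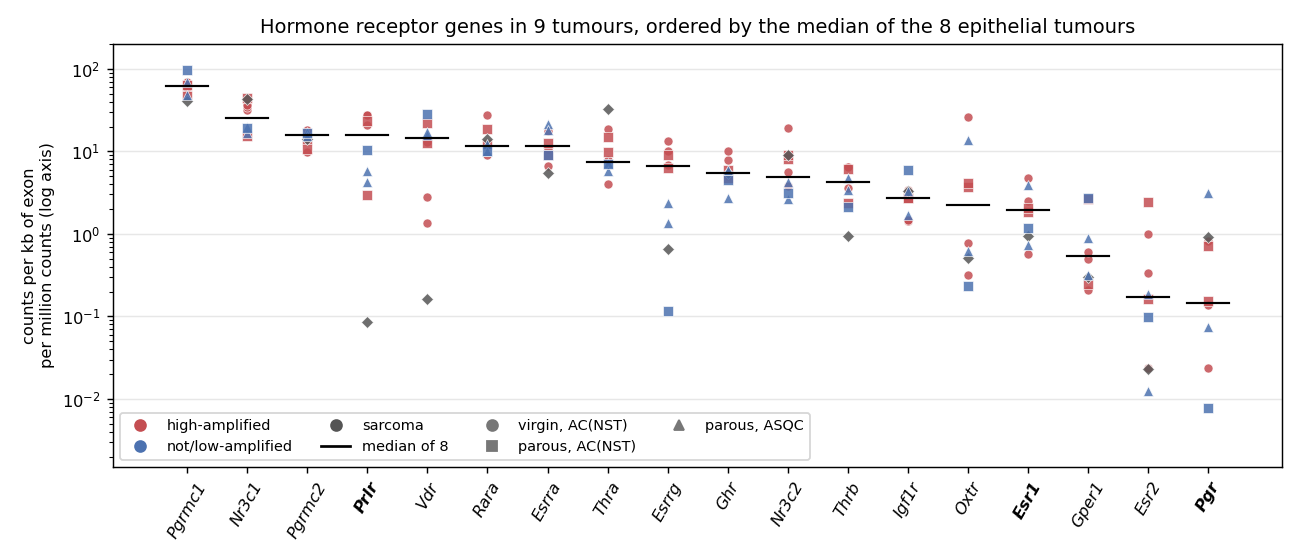
CPM per kilobase of exon (log axis) of 18 of the 19 hormone receptor genes, with 1 point per tumour; colours give the amplification group, symbols the parity and histotype, and bars the median of the 8 epithelial tumours. Prlr has a median of 15.6, Esr1 1.95 and Pgr, drawn last, 0.146.

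The 5 genes also differed in how much they varied. The SD of log2(normalized count + 1) over the 8 epithelial tumours was 2.59 for Pgr, and only 1.69% of the 14007 genes tested varied more. It was 1.27 for Tnfsf11, 1.25 for Prlr, 1.11 for Greb1 and 1.08 for Esr1, against a median of 0.65 for all genes tested. The 5 genes did not follow a common order over the tumours. MS1163.1 had the lowest Esr1 of the 8 and the highest Prlr, and MS1218.2 had the lowest Prlr and the lowest Tnfsf11.

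**Figure D2:**
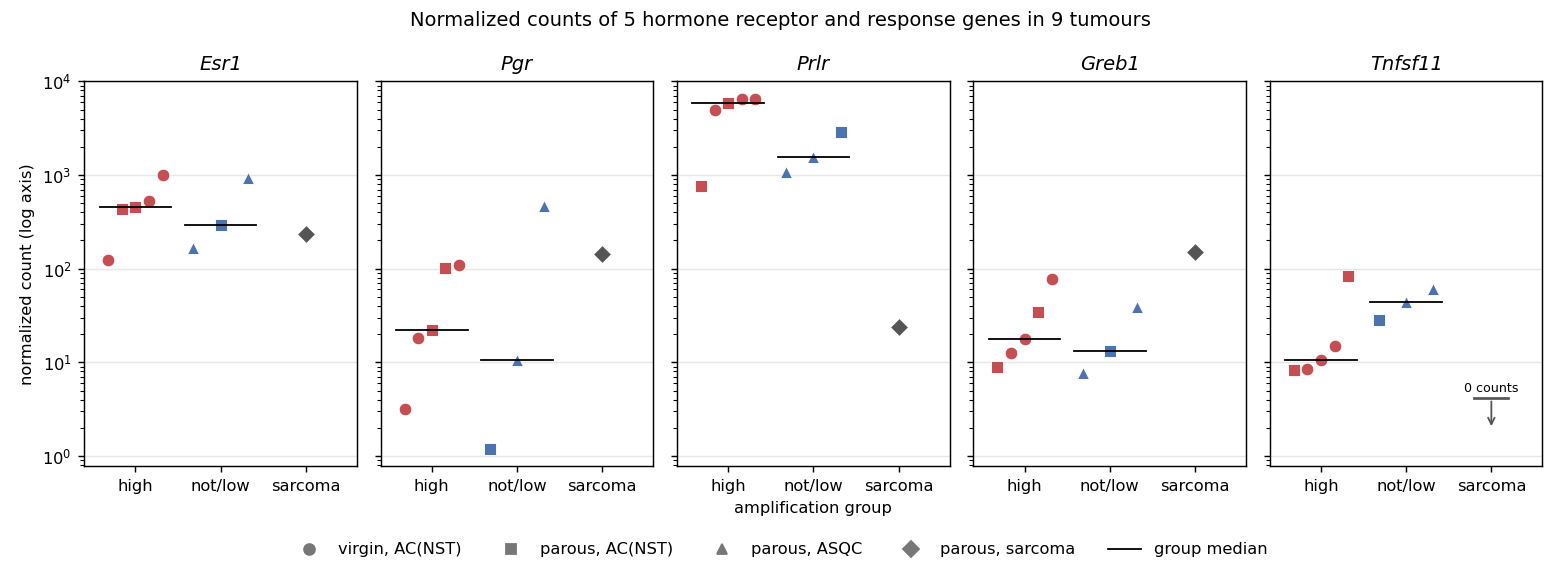
Normalized counts (log axis) of Esr1, Pgr, Prlr, Greb1 and Tnfsf11 in each of 9 tumours by amplification group; symbols give parity and histotype, bars the group median, and the arrow in the sarcoma a count of 0 drawn at the limit that 3 counts set. Prlr separates the groups except for MS1218.2 at 769, Pgr spreads from 1.19 to 462 within the not/low-amplified tumours, and Tnfsf11 is at 8.39 to 14.9 in the 3 virgin tumours.

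Esr1 did not differ between the groups beyond the spread of the tumours. From the highest to the lowest of the high-amplified tumours it had 1005.4 normalized counts in MS1213.1, 529 in MS1163.2, 459 in MS1155.3, 430 in MS1218.2 and 123 in MS1163.1. Of the not/low-amplified tumours, MS1349.1 had 929, MS1166.1 had 294 and MS1210.1 had 166. The groups overlapped in full, and both a virgin AC(NST) tumour and an ASQC tumour lay near the top. The log2 fold change of high- over not/low-amplified tumours was 0.15 (SE 0.68, 95% interval -1.37 to 1.67) with an adjusted p of 0.911 by edgeR's quasi-likelihood test. The values were 0.28 (SE 0.67) for virgin over parous and 0.22 (SE 0.75) for ASQC over AC(NST), with adjusted p of 0.860 and 0.959. These intervals leave room for differences of over 2-fold in either direction.

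Pgr varied more between tumours than any comparison could resolve. Its normalized count was 462 in the ASQC tumour MS1349.1, from 633 counts, but 10.5 in the other ASQC tumour, MS1210.1, and 1.19 in MS1166.1, from a single read (1 count). In the high-amplified tumours it was 109 in MS1163.2, 100.5 in MS1155.3, 22.2 in MS1218.2, 18.3 in MS1213.1 and 3.15 in MS1163.1, the last from 3 counts. The highest tumour was therefore 389-fold above the lowest, with a 95% counting interval of 69.5 to 15380. The log2 fold change was -1.66 for high- over not/low-amplified (SE 1.44, adjusted p = 0.510), -1.49 for virgin over parous (SE 1.62, adjusted p = 0.673) and 2.50 for ASQC over AC(NST) (SE 1.38, adjusted p = 0.646), all by edgeR. MS1349.1 decided these values. Without it the amplification value was 3.02 (adjusted p = 0.298), the parity value 0.36 (adjusted p = 0.931) and the histotype value -1.99 (adjusted p = 0.998), each with the opposite sign.

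The tumours that share a mouse number were unlike each other in Esr1, Pgr and Greb1 and alike in Prlr. MS1163.2 had 34.7 times the Pgr of MS1163.1 (95% counting interval 11.5 to 171.7), 4.31 times its Esr1 (3.51 to 5.34) and 4.39 times its Greb1 (2.54 to 8.001). For Prlr the ratio was 0.995 (0.959 to 1.03), and for Tnfsf11, at 12 and 8 counts, it was 1.78 (0.668 to 5.01). These intervals cover counting error only, and with 1 library each the ratios compare those libraries. MS1163.2 also had a sum of 3 skeletal muscle markers of 2267 and a sum of 4 adipocyte markers of 920, against 6.30 and 82.9 in MS1163.1, and the part of this tissue in the ratios was not tested.

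Greb1 was low in every epithelial tumour. Its normalized count was 78.3 in MS1163.2, 34.3 in MS1218.2, 17.8 in MS1163.1, 12.5 in MS1213.1 and 9.02 in MS1155.3 among the high-amplified tumours. It was 38.7 in MS1349.1, 13.1 in MS1166.1 and 7.74 in MS1210.1 among the not/low-amplified. Each group thus held tumours at both ends of the range. The tumours with the most Greb1, MS1163.2 and MS1349.1, were also those with the most Pgr. MS1155.3, place 3 of 8 in Pgr, was in place 7 of 8 in Greb1. By edgeR the log2 fold change was 0.60 for amplification (SE 0.85, adjusted p = 0.699), 0.79 for virgin over parous (SE 0.82, adjusted p = 0.661) and -0.22 for ASQC over AC(NST) (SE 0.98, adjusted p = 0.968).

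Prlr was higher in 4 of the 5 high-amplified tumours than in any not/low-amplified tumour. Its normalized count was 6551 in MS1163.1, 6516 in MS1163.2, 5889 in MS1155.3 and 4938 in MS1213.1, but 769 in the fifth high-amplified tumour, MS1218.2. Of the not/low-amplified tumours, MS1166.1 had 2858, MS1349.1 had 1557 and MS1210.1 had 1077. The 4 high tumours thus lay above all of the not/low-amplified tumours and MS1218.2 below all of them, and the group means were 4933 ± 2417 (SD, n = 5) and 1831 ± 922 (SD, n = 3). The log2 fold change was 1.45 (SE 0.63, 95% interval 0.04 to 2.86), with an unadjusted p of 0.0449 and an adjusted p of 0.207 by edgeR. It did not pass the threshold. With the MS1163 tumours averaged the value was 1.33 (adjusted p = 0.292, edgeR).

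Without MS1218.2 the log2 fold change of Prlr was 1.73 (SE 0.34, 95% interval 0.94 to 2.52; adjusted p = 0.0265, edgeR), which passed. That fit called 9.08% of its 13816 genes, against 0.921% with all 8 tumours. In it, 30.7% of all genes did not overlap between the groups, as Prlr did not. MS1218.2 combined the lowest Prlr with the highest fibroblast, macrophage and endothelial sums given above. Its sum of 4 luminal progenitor markers, 11388, was the lowest of the 8 (the others had 11676 to 30624), while its luminal sum of 48492 was the highest of the high-amplified tumours and below all of the not/low-amplified ones. The part of this composition in its Prlr value was not tested.

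By parity, Prlr was 4938 to 6551 in the 3 virgin tumours and 769 to 5889 in the 5 parous ones, so that MS1155.3, parous and high-amplified, lay inside the virgin range. The log2 fold change of virgin over parous was 1.31 (SE 0.60, adjusted p = 0.359), and without MS1155.3 it was 1.96 (SE 0.44, adjusted p = 0.0651). With the MS1163 tumours averaged the parity value was 1.24 (adjusted p = 0.636, edgeR). By histotype, both ASQC tumours (1077 and 1557) lay below 5 of the 6 AC(NST) tumours, with a log2 fold change of -1.79 (SE 0.74, unadjusted p = 0.0363, adjusted p = 0.527). Within parous tumours alone, with MS1218.2 and MS1155.3 as the high-amplified tumours, the amplification value was 0.91 (SE 0.83, adjusted p = 0.664). Within AC(NST) tumours alone it was 0.75, with MS1166.1 as the only not/low-amplified tumour. Within high-amplified tumours alone, virgin over parous was 0.85 (SE 0.75, adjusted p = 0.750), all by edgeR. The direction was the same in each of these subsets and the size was smaller than with all 8 tumours.

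Tnfsf11 was low in the virgin tumours. Its normalized count was 14.9 in MS1163.2, 10.6 in MS1213.1 and 8.39 in MS1163.1. The parous tumour MS1155.3 had 83.7, the ASQC tumours MS1210.1 and MS1349.1 had 61.2 and 43.8, and MS1166.1 had 28.5, but MS1218.2 had 8.33. Thus 4 of the 5 parous tumours lay above all virgin tumours and MS1218.2 below them. The means were 11.3 ± 3.32 (SD, n = 3) and 45.1 ± 29.1 (SD, n = 5). The log2 fold change of virgin over parous was -1.99 (SE 0.78, 95% interval -3.75 to -0.23), with an unadjusted p of 0.0307 and an adjusted p of 0.329 by edgeR. It did not pass the threshold, and the virgin values rest on 8 to 12 counts per tumour. With the MS1163 tumours averaged the value was -2.03 (adjusted p = 0.631, edgeR).

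Without MS1218.2 the value was -2.25 (SE 0.60, adjusted p = 0.247), and virgin and parous tumours did not overlap in Tnfsf11, as for 12.7% of all genes in that fit. Within the high-amplified tumours alone it was -2.02 (SE 1.02, adjusted p = 0.728), where MS1155.3 at 83.7 stood far above MS1218.2 at 8.33. By amplification the log2 fold change was -0.82 (SE 0.85, adjusted p = 0.592), and within parous tumours alone it was 0.08 (SE 1.03, adjusted p = 0.982). By histotype it was 1.04 (SE 0.91, adjusted p = 0.783). MS1155.3 bore on both: without it the amplification value was -2.06 (SE 0.57, adjusted p = 0.136) and the histotype value 1.90 (SE 0.68, adjusted p = 0.561), and neither passed.

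Over the comparisons, 0 of the 5 members passed in any of them by edgeR, by DESeq2 or by limma. A gene passed with an adjusted p under 0.05 over all genes tested and a change of over 2-fold. By edgeR, 0.921% of 14007 genes passed for amplification, 0.0% for parity and 0.236% for histotype. At an unadjusted p under 0.05 there was 1 member in each comparison, beside 22.8%, 14.2% and 8.72% of all genes. The member was Prlr for amplification and histotype and Tnfsf11 for parity. With all 8 tumours, 0 of 5 members had groups that did not overlap in any comparison, against 15.6% of all genes for amplification, 9.25% for parity and 10.3% for histotype. The median log2 fold change of the 5 was 0.15 for amplification, 0.28 for parity and 0.22 for histotype, beside 0.02, -0.10 and -0.08 over all genes tested. Without MS1218.2, 1 of 5 members passed for amplification (Prlr) and 0 of 5 for parity and histotype, where 0.0% and 0.0507% of all genes passed and 1 member in each had an unadjusted p under 0.05. In that set Prlr also separated the ASQC from the AC(NST) tumours without overlap, as 18.8% of genes did.

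**Figure D3:**
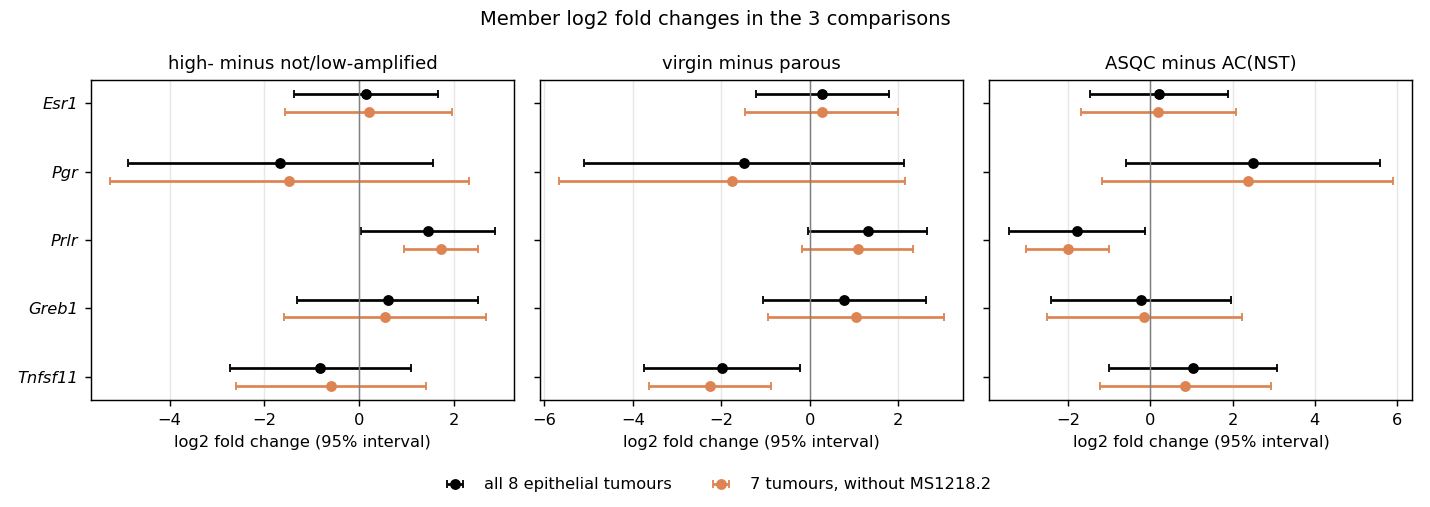
Log2 fold changes of the 5 genes by edgeR with 95% intervals, for high- minus not/low-amplified, virgin minus parous and ASQC minus AC(NST); black is the fit on all 8 epithelial tumours and orange the fit without MS1218.2. All intervals include 0 except those of Prlr for amplification and histotype and of Tnfsf11 for parity.

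**Figure D4:**
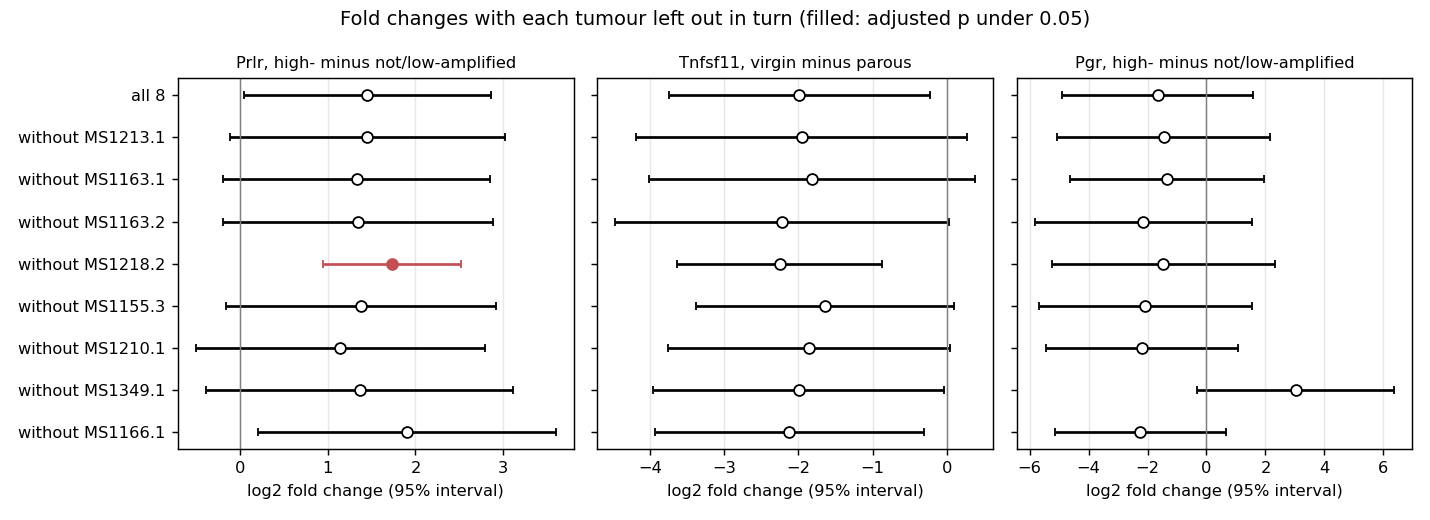
Log2 fold changes with 95% intervals when each tumour is left out in turn, for Prlr and Pgr by amplification and Tnfsf11 by parity; filled points have an adjusted p under 0.05. Prlr passes in 1 of the fits, without MS1218.2 at 1.73, and Pgr turns to 3.02 without MS1349.1.

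In the sarcoma the receptors took another order. Prlr had 17 counts, or 23.7 normalized counts (exact 95% Poisson interval 13.8 to 37.97), which was 32.4-fold below the lowest epithelial tumour (counting interval 20.1 to 55.9). Tnfsf11 had 0 counts, with an exact 95% Poisson upper limit of 5.15 normalized counts, and the lowest epithelial tumour had 8.33, from 9 counts. Esr1 at 236 (202 to 274) and Pgr at 142 (116 to 173) lay inside the epithelial range. Greb1 at 152 (125 to 183) was 1.94-fold above the highest epithelial tumour (counting interval 1.41 to 2.69). With 1 sarcoma there was no test, and these intervals cover counting error only. The sarcoma was scaled here to the 8 epithelial tumours, and it had a fibroblast marker sum of 337760 and a sum of 11318 for 3 skeletal muscle markers.

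Genes around the receptors were read from 6 lists that hold 66 genes, of which 63 were in the files and 57 were tested. By edgeR with all 8 tumours, 0 of the 57 passed in any comparison, and 16, 10 and 8 had an unadjusted p under 0.05 for amplification, parity and histotype, beside the 22.8%, 14.2% and 8.72% of all genes given above. Without MS1218.2, 3 of 57 passed for amplification, a smaller share than the 9.08% of all genes that passed in that fit. For parity and histotype 0 of 57 passed, and 8 and 10 had an unadjusted p under 0.05, beside 1919 and 1843 of all 13816 genes. The 3 genes that passed for amplification included Ncoa1, a coactivator of nuclear receptors, and Socs2. Their log2 fold changes were 1.09 and 2.87, higher in high-amplified tumours, with adjusted p of 0.0256 and 0.0467 by edgeR.

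**Figure D5:**
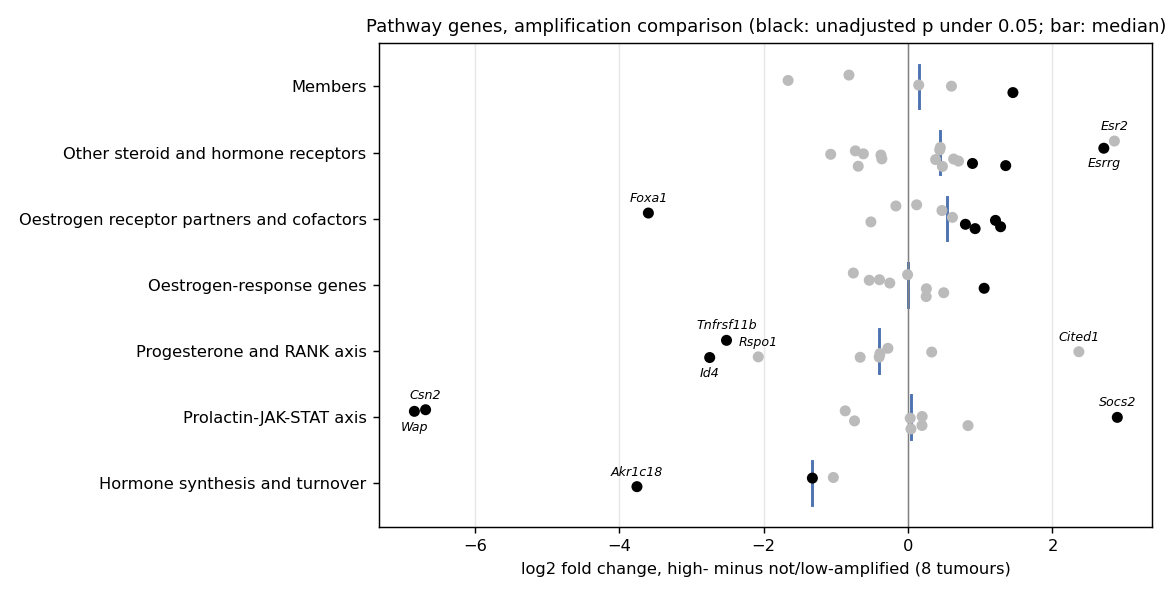
Log2 fold changes of high- minus not/low-amplified tumours by edgeR for the 5 members and for the tested genes of 6 pathway lists; black points have an unadjusted p under 0.05, blue bars are list medians, and genes beyond 2 on the log2 scale are named. No gene passed adjustment, and the milk protein genes Csn2 and Wap lie farthest out at -6.68 and -6.84.

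Among the other hormone receptors, 10 of 16 had a positive and 6 a negative log2 fold change for amplification, with a median of 0.44. The widest differences were those of Esr2, Esrrg, an orphan receptor related to the oestrogen receptors, and Nr3c2, the mineralocorticoid receptor. Esrrg had 660 to 1312 normalized counts in the high-amplified and 13.1 to 259 in the not/low-amplified tumours. These groups did not overlap, as for 15.6% of all genes, and the log2 fold change was 2.71 (SE 0.76, adjusted p = 0.0923, edgeR). Esr2 had 1.24 to 134 against 0.703 to 10.96, a log2 fold change of 2.86 (SE 1.38, adjusted p = 0.251) that rests on few counts. Nr3c2 had 380 to 1914 against 302 to 461 (1.35, SE 0.50, adjusted p = 0.156).

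The partners of the oestrogen receptor gave 7 positive and 3 negative values of 10, with a median of 0.54. By edgeR, 5 of the 10 had an unadjusted p under 0.05, a larger share than the 22.8% of all genes, and 0 passed. Foxa1, a factor that opens chromatin for the oestrogen receptor, was nearly absent from most tumours. It had 302 normalized counts in MS1349.1, but 0 counts in MS1163.1 and 24.5 normalized counts or fewer in the other 6 epithelial tumours. Its log2 fold change for amplification was -3.60 (SE 1.54, adjusted p = 0.201). Gata3, a luminal lineage factor, had 826 to 2947 in the high-amplified and 632 to 1077 in the not/low-amplified tumours (1.21, SE 0.44, adjusted p = 0.152).

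The oestrogen-response genes had 4 positive and 5 negative values of 9 tested, with a median of -0.01. Ccnd1, the D-type cyclin, had 5008 to 18725 against 4981 to 34170 normalized counts (-0.76, SE 0.65, adjusted p = 0.507). Cxcl12, a chemokine, had 438 to 1245 against 225 to 580 (1.05, SE 0.47, adjusted p = 0.216), and Myb had a log2 fold change of -0.54 (SE 0.53, adjusted p = 0.566). Tff1, a classical oestrogen target, had at most 3.73 normalized counts in any epithelial tumour and was not tested.

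In the progesterone and RANK list, 2 of 9 genes had positive and 7 negative values, with a median of -0.40. By parity 1 of the 9 was positive and 8 were negative, with a median of -0.79 beside -0.10 over all genes tested. Tnfrsf11b encodes osteoprotegerin, the decoy receptor that binds RANKL. It had 3502 normalized counts in MS1210.1 and 1111 in MS1349.1, the ASQC tumours, but 34.5 in MS1166.1. In the high-amplified tumours it had 51.5 to 651. The log2 fold change was -2.51 for amplification (SE 1.07, adjusted p = 0.200) and 3.32 for histotype (adjusted p = 0.256). The RANK gene itself, Tnfrsf11a, was well expressed at 768 to 2976 normalized counts in the 8 epithelial tumours and at 225 in the sarcoma, with a log2 fold change of 0.33 for amplification. Id4, an inhibitor of DNA binding, had 217 and 240 normalized counts in the ASQC tumours and 8.39 to 58.0 in the AC(NST) tumours (histotype 3.42, adjusted p = 0.110; amplification -2.75, SE 0.89, adjusted p = 0.123). The sum of 5 squamous markers was 124 and 409 in the same ASQC tumours and 9.26 to 24.5 in the AC(NST) tumours, where Lor was at 0 in all 6. The sum of 6 basal and myoepithelial markers was 57157 and 10644 against 1201 to 13237. The part of these cells in the values of Tnfrsf11b, Id4 and other genes high in the ASQC tumours was not tested. Cited1, a transcriptional coregulator of hormone-sensing cells, had 4.82 to 67.6 against 0 to 17.5 (2.37, SE 1.30, adjusted p = 0.304).

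In the prolactin list the receptor, its kinase and its outputs gave different values. Jak2 had a log2 fold change of 0.03 for amplification, Stat5a 0.19 and Stat5b 0.83. Socs2, a STAT5-induced inhibitor of cytokine signalling, had 1225 to 5677 normalized counts in the high-amplified tumours and 243 to 805 in the not/low-amplified ones. Its groups did not overlap, as for 15.6% of all genes (log2 fold change 2.90, SE 0.68, adjusted p = 0.0712, edgeR). MS1218.2, low in Prlr, had 3471 normalized counts of Socs2. The milk protein genes Csn2 and Wap followed a single tumour. Csn2 had 420670 normalized counts in MS1349.1 and 12.6 to 4146 in the other 7 epithelial tumours, and Wap had 32692 in MS1349.1 and 1.24 to 376 elsewhere. Their log2 fold changes for amplification were -6.68 (SE 2.39, adjusted p = 0.146) and -6.84 (SE 2.50, adjusted p = 0.150). MS1349.1 thus combined the most Pgr, Foxa1, Csn2 and Wap of the 8 epithelial tumours with a Prlr of 1557, place 6 of 8. This is the tumour without evidence of stop cassette removal given above. The part of its cell composition in these values was not tested. Of 5 hormone-sensing luminal markers, Foxa1 and Tbx3 were highest in MS1349.1, but Prom1, Cited1 and Ly6a were not. The sum of these markers was 5932 there, against 6644 in MS1163.2 and 6230 in MS1163.1.

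Of the genes for hormone synthesis and turnover, 3 of the 6 in the files were tested, and each had a negative log2 fold change for amplification that did not pass. Akr1c18, which inactivates progesterone, had 290 and 45.3 normalized counts in the ASQC tumours and no more than 10.6 in any AC(NST) tumour, with 0 counts in the not/low-amplified MS1166.1 (-3.75, SE 1.22, adjusted p = 0.125). Srd5a1, a steroid reductase, had 85.2 to 126 in the high-amplified and 144 to 338 in the not/low-amplified tumours (-1.33, SE 0.35, adjusted p = 0.0862), and Hsd17b2, which oxidises oestradiol, had -1.03 (SE 0.98, adjusted p = 0.554). Cyp19a1, the aromatase gene, had at most 2.38 normalized counts.

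The genes whose pattern over the 8 epithelial tumours was most like each member were taken by Pearson's r of log2(normalized count + 1) among 12213 genes with a mean of at least 50 normalized counts. With 8 points chosen from so many genes, r is a description only. Prlr was closest to Gin1 (r = 0.99), Mrps10 (0.98) and Phkb (0.98). All of these were lowest in MS1218.2, and for Gin1 the range was 60.2 to 219 normalized counts. Esr1 was closest to Il6st (0.88), Tgfb2 (0.87) and the oxytocin receptor gene Oxtr (0.84), which ran from 20.2 in MS1166.1 to 1943 in MS1213.1. Pgr was closest to Glb1l2 (0.94), Lama1 (0.93) and Gldc (0.93), and Gldc, like Pgr, was highest in MS1349.1 at 1240 against 2.10 to 154 in the other 7. Greb1 was closest to Fabp4, Gga2 and Poglut1 (each 0.88), and Fabp4, an adipocyte gene, ran from 137 to 1152. The sum of 4 adipocyte markers was highest in MS1163.2, at 920, and second in MS1349.1, at 536, the tumours with the most Greb1, and its part in the Greb1 values was not tested. Tnfsf11 was closest to Dcaf10 (0.95) and Zyg11b (0.93).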

How the data were processed

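Total RNA of 9 tumours was depleted of rRNA and sequenced in pairs from directional libraries by the authors, who aligned the reads to mouse build 38 with STAR (unique positions only, unstranded settings). The counts per gene deposited by the authors come from HTSeq-count. For each epithelial tumour the authors also deposited a signal value per gene, which is the count divided by 1 size factor per tumour (0.776 to 1.42). The sarcoma was divided here by its median-of-ratios factor against the 8, 0.717.

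Groups follow the labels. A gene was tested where 3 or more of the 8 epithelial tumours had 10 or more counts, with edgeR 4.0.16 (TMM, quasi-likelihood test, Benjamini-Hochberg over all genes, no covariates) in R 4.3.3, leaving out the sarcoma. Intervals are at 95%. The fit was tested on simulated data. Alternatives were DESeq2 1.42.0, limma 3.58.1 on log2 values (pseudocounts 1 and 10), median-of-ratios scaling, no filter, the tumours of mouse MS1163 averaged, covariates, subsets and each tumour left out. List counts without MS1218.2 were added after the data were seen.

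The members and lists were chosen with earlier results of these data known. Named genes are the 5 members, of each list the genes that passed and the 3 with the largest change for amplification, and for each member the 3 genes of highest r; others were chosen after their values were seen, and 3 genes that this rule or the figures would name are not reported here. Exon lengths came from GENCODE M21 and promoters from RefSeq GRCm38.p6. Figures used matplotlib 3.10.9.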

Additional observations from a re-analysis of the deposited data

Results flagged for a closer look

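Of 15 pairs of a gene and a group with 4 to 10 tumours, 2 held a tumour far from the others on the log2 scale (Dixon's ratio of the gap to the range, 95% critical value); chance alone flags about 1 in 20 such groups. Prlr in MS1218.2, at 769.26 normalized counts, was far below the other 4 high-amplified tumours, with a ratio of 0.868. Tnfsf11 in MS1155.3, at 83.727 normalized counts, was far above the other 4 high-amplified tumours, with a ratio of 0.758. No technical or biological reading of either was tested.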

How the results depend on the processing

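Of 245 member log2 fold changes recomputed under alternatives for 15 results, 221 kept their direction and their side of the threshold, 23 changed sign, in 10 of the results, and 1 newly passed. None of the sign changes concerned a value that passed, and the cause was not tested. Prlr kept its direction in all 3 comparisons under every alternative run. Without high-amplified replicate 4 (MS1218.2), 1 member passed for amplification, Prlr at 1.73. With each tumour left out, the number of members that passed was 0 to 1 for amplification.

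The sign changes were as follows, in log2 units. For amplification, Esr1 gave -0.047 with parity as a covariate and -0.022 in parous tumours, with a range of -0.26 to 1.19 when each tumour was left out. Pgr gave 0.36 by limma with a pseudocount of 1 and 5.22 in AC(NST) tumours (leave-one-out range -2.24 to 3.02). In that subset MS1166.1, with 1 count of Pgr, was the only not/low-amplified tumour. Tnfsf11 gave 0.054 with parity as a covariate and 0.075 in parous tumours, and Greb1 ranged from -0.090 to 1.57. For parity, leave-one-out ranges were -0.50 to 0.76 for Esr1, -0.43 to 1.19 for Greb1 and -3.45 to 0.36 for Pgr. For histotype, Esr1 gave -0.0071 and -0.0022 by limma with pseudocounts of 1 and 10 (leave-one-out range -1.52 to 0.94). Greb1 gave 0.034 with the MS1163 tumours averaged, 0.86 in not/low-amplified tumours and 0.28 in parous tumours (-1.81 to 0.47), while Pgr ranged from -1.99 to 3.43. The not/low-amplified subset held MS1166.1 as its only AC(NST) tumour.

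Over all genes the number that passed was less stable. For amplification, 129 passed by edgeR, 1591 by DESeq2, 210 by limma with a pseudocount of 10, 229 without a filter, 31 with the MS1163 tumours averaged, 69 in AC(NST) tumours, 0 with parity as a covariate or in parous tumours alone, and 1 to 1255 with each tumour left out. For parity, 0 passed by edgeR, 511 by DESeq2 and 0 to 147 with each tumour left out. For histotype, 33 passed by edgeR, 518 by DESeq2, 14 and 51 by limma with pseudocounts of 1 and 10, 171 without a filter, 18 with the MS1163 tumours averaged, 0 in not/low-amplified tumours, 1 in parous tumours and 4 to 84 with each tumour left out.

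Among the pathway lists, 3 genes passed for amplification without MS1218.2, an alternative added after the data were seen. No paired analysis was made, because the labels do not match tumours between the groups. Depth limits Pgr, Greb1 and Tnfsf11, which had as few as 1, 7 and 8 counts in an epithelial tumour.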

Other observations

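Several genes known as progesterone-induced or as secreted partners of RANKL were chosen after their values were seen, and are given as values only. MS1155.3, which had the most Tnfsf11 of the 8 epithelial tumours, also had the most Wnt4 and Calca, at 122 and 246 normalized counts, whereas Wnt4 had 1.05 to 59.9 and Calca 0 to 30.7 in the other 7. Its Pgr was 100.5, below MS1349.1 at 462 and MS1163.2 at 109. In MS1349.1 and MS1163.2, Wnt4 was 59.9 and 22.4, Calca 30.7 and 0, and Tnfsf11 43.8 and 14.9. Rspo1, a secreted enhancer of Wnt signalling, had 0 counts in each of the 3 virgin tumours and 45.1, 39.5 and 77.3 normalized counts in the parous tumours MS1155.3, MS1349.1 and MS1166.1, but 0.926 in MS1218.2 and 0.703 in MS1210.1. In the sarcoma Wnt4 had 732 normalized counts and Rspo1 4.19.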
